A study of Mus musculus with 32 samples.

Results

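Whole-kidney RNA of NZB/W mice in late remission after treatment with Ad-TACI-Ig+CTLA4Ig (5 kidneys) was compared with that of non-proteinuric NZB/W mice at 30 weeks (7 kidneys). The members were taken by their sample titles and make up 12 of the 32 kidneys of the series. NZB/W mice are F1 hybrids of the NZB and NZW strains and develop a lupus-like nephritis, and the methods describe kidneys of female mice taken after saline perfusion of the heart. Both groups therefore carry the same lupus-prone genotype, and neither is a healthy strain. The treated mice received an adenovirus encoding TACI-Ig together with CTLA4Ig, and their labels give the disease state as late remission but no age. The 30-week mice have no treatment in their labels, so treatment, past disease and any difference in age cannot be told apart in this comparison. Nothing in the labels says whether each kidney came from a mouse of its own, 30-week replicate 6 shares the code in its sample name with a kidney of the early-remission group, and the p-values measure the spread between these samples.

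TACI-Ig is a soluble decoy receptor that captures BAFF and APRIL, the cytokines that keep B cells and plasma cells alive. CTLA4Ig binds CD80 and CD86 on antigen-presenting cells and withholds the CD28 signal that T cells need for activation. In lupus nephritis immune complexes lodge in the glomerulus, leukocytes enter the interstitium, and the proximal tubule, which reabsorbs most of the filtered solute, loses transporters and enzymes as it is injured.

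The kidneys were not alike within their groups, and this bears on every result. All values are log2 expression levels, so that a difference of 1 is a doubling, and all differences are late remission minus 30 weeks. The array medians lay between 7.07 and 7.11. The uromodulin gene Umod, a marker of the thick ascending limb, lay between 13.47 and 13.80 in the treated kidneys and between 13.34 and 13.62 at 30 weeks, which fits the labelled tissue. At 30 weeks replicate 2 stood apart from the other 6 kidneys of its group, with the mean of 25 macrophage and dendritic cell genes 1.24 above the group mean and the mean of 19 proximal tubule genes 0.65 below it (−0.65). The adrenal cortex list, 9 genes of steroid hormone synthesis and its control, averaged 8.63 to 8.91 in 30-week replicates 1, 2, 3, 5 and 6, 6.19 in replicate 4 and 5.73 in replicate 7, against 5.70 to 5.90 in all 5 treated kidneys. The array controls that set the 3-prime end of the actin transcript against its 5-prime end gave log2 differences of 1.50, 0.66, 0.99, 0.86 and 1.29 in treated replicates 1 to 5 and 0.49 to 0.94 at 30 weeks. Treated replicates 1, 3 and 5 were thus above all 30-week kidneys on the actin control, and they recur below as the kidneys that carry many differences. The like control for the Gapdh transcript gave 0.42, −0.06, 0.18, 0.18 and 0.37 in treated replicates 1 to 5 and −0.05 to 0.17 at 30 weeks. On that control treated replicate 4 was also above all 30-week kidneys, if only just. Fits with the adrenal cortex mean or the actin difference as a covariate are given beside many of the genes whose value they moved by over 1.5 times, and the part of these features was not tested otherwise. Because the adrenal cortex mean was high in 30-week kidneys only, its fit compares the groups mainly through 30-week replicates 4 and 7.

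No gene passed a Benjamini-Hochberg adjusted p of 0.05 in either direction when 15780 named genes were tested with limma, and the smallest adjusted p was 0.203. At an unadjusted p under 0.05 there were 1682 higher genes (10.7%) and 1526 lower genes (9.67%). A SAM-type test with 100 permutations of the samples, the kind of test named in the methods, called 20 higher and 24 lower genes at a q-value of 0.05. The q-values of that test are coarse, and each called gene had either 0 or 0.0455. At the study's own filter, a q-value of 0.001 with at least a 1.4-fold rise or a fall to 0.7-fold, it called Cited4 as higher and Cyp24a1, Cd1d1, Apoc1, Aox1 and Akr1d1 as lower. Cited4 and Aox1 were dim, with mean levels of 5.5 and 5.6 over the 12 kidneys. By limma, 0 genes passed that filter in either direction.

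Treated replicate 2 decided the limma count. Without it, 517 genes were higher (3.28%) and 792 lower (5.02%) at an adjusted p of 0.05. Without 30-week replicate 7 the counts were 1 and 3, and without any other single kidney they were 0 and 0. Among the 5 treated kidneys replicate 2 had the fewest genes beyond the range of the 7 30-week kidneys, 1337 above and 1395 below, where replicate 1 had 5478 and 3400 and replicate 5 had 3990 and 3429.

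Genes were then set apart by how many treated kidneys carried the difference. In 89 genes (0.564% of those tested) all 5 treated kidneys lay above all 7 30-week kidneys, and in 37 genes (0.234%) all 5 lay below. A second class held genes with a mean difference of at least 1.4-fold or at most 0.7-fold in which some, but not all, treated kidneys lay beyond the 30-week range. It held 56 higher genes (0.355%) and 139 lower genes (0.881%), out of 66 (0.418%) and 154 (0.976%) genes past those limits in all. Without 30-week replicate 2 the non-overlapping classes held 198 and 144 genes and the carried classes 125 and 198, and without treated replicate 2 they held 496, 352, 108 and 253. The classes are descriptions of the same 12 kidneys and were given no test of their own. The limma adjusted p of the non-overlapping genes ran from 0.203 to 0.294.

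The non-overlapping genes differed by little. The median difference was 0.21 among the 89 higher genes and −0.27 among the 37 lower genes, and only 5 and 7 of them also reached the 1.4-fold and 0.7-fold limits. Of the higher genes 47 had a mean level under 6.07, as do the dimmest 5260 of the 15780 genes, against 3 of the lower genes. The gap between the groups was 0.000185 for Gckr, the gene just inside the higher class, and Nwd2 lay just outside with a gap of −0.00089. The widest gap was 0.1 for Hspa1b among the higher genes and 0.312 for Cyp24a1 among the lower genes.

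Cyp24a1, the 24-hydroxylase that inactivates vitamin D hormone in the proximal tubule, had the second largest negative difference of the non-overlapping genes and the widest separation. Its level was 7.02, 8.50, 8.91, 8.82 and 7.83 in treated replicates 1 to 5. At 30 weeks the lowest, median and highest levels were 9.23, 10.19 and 10.70. Every treated kidney was below every 30-week kidney, and treated replicates 1 and 5 were far lower than the rest. The difference in means was −1.77 ± 0.33 (SE), a 3.41-fold lower level, with a limma adjusted p of 0.203 in all 12 kidneys and 0.0243 without treated replicate 2. In a fit with the adrenal cortex mean as a covariate the difference was −1.60 ± 0.505 (SE), and with the actin covariate it was −1.20 ± 0.33. Of the 12 measured genes of vitamin D and calcium handling Cyp24a1 was the one whose groups did not overlap, and the list's median difference was 0.07 against 0.035 over all genes.

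**Figure D1:**
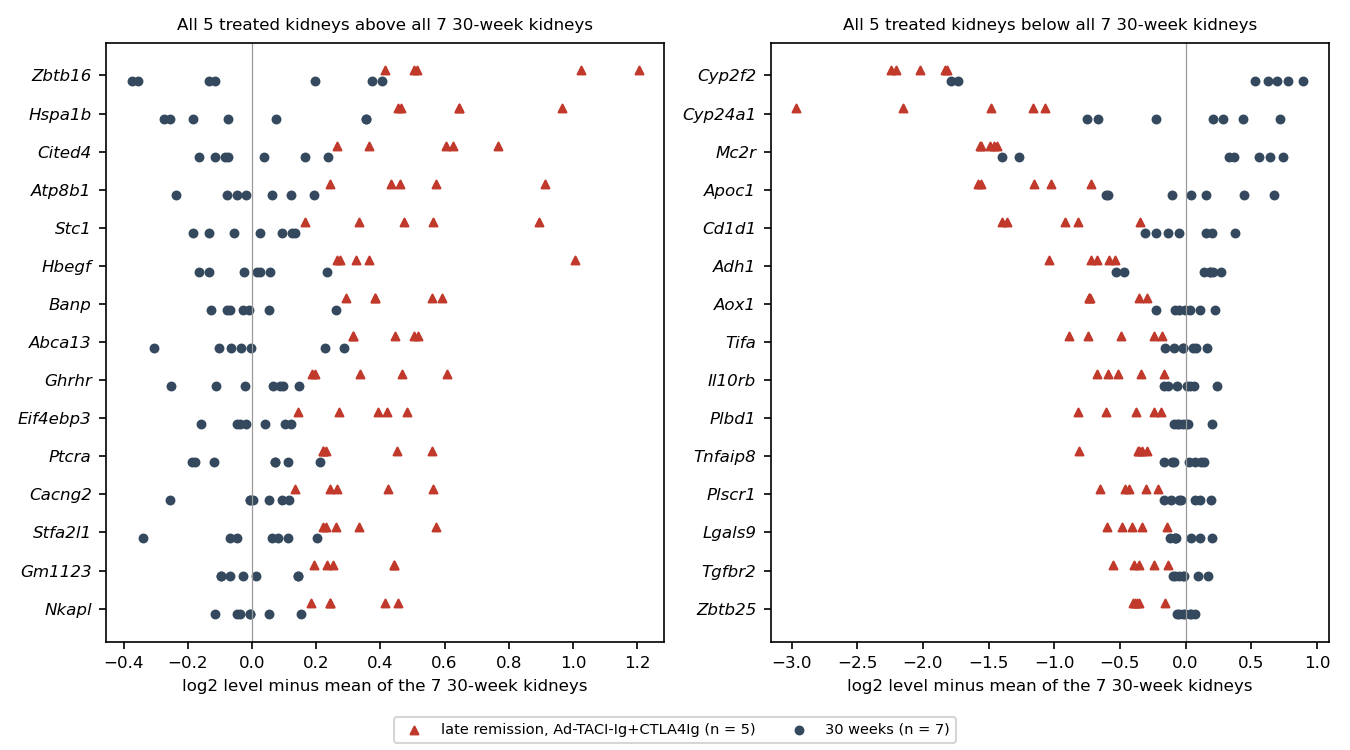
Log2 level of each kidney minus the mean of the 7 30-week kidneys (horizontal axis) for the 15 genes with the largest positive difference (left) and the 15 with the largest negative difference (right) among genes whose groups do not overlap. Triangles are the 5 late-remission kidneys and circles the 7 30-week kidneys. For Cyp2f2, Mc2r, Apoc1 and Adh1 a pair of 30-week kidneys, replicates 4 and 7, sits beside the treated kidneys, whereas Cyp24a1 leaves the widest empty space between the groups.

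Cd1d1, which encodes the molecule that presents lipid antigens to NKT cells, was at 6.67, 7.72, 6.71, 7.25 and 7.15 in treated replicates 1 to 5. At 30 weeks its lowest, median and highest levels were 7.76, 8.02 and 8.44. Treated replicate 2 came within 0.035 of the lowest 30-week kidney, while replicates 1 and 3 were at least 1 log2 unit below it. The difference was −0.97 ± 0.17 (SE), and it was −0.69 with the adrenal cortex covariate. Its adjusted p by limma was 0.203 with all kidneys and 0.0150 without treated replicate 2.

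Further lower genes had smaller differences. Il10rb, a receptor chain shared by interleukin-10 and type III interferon, differed by −0.46 ± 0.09 (SE). Tifa, an adaptor that activates TRAF6 and NF-kappaB, differed by −0.51 ± 0.12, and Tnfaip8, an inhibitor of apoptosis induced by TNF, by −0.43 ± 0.09. Lgals9, which encodes galectin-9, differed by −0.39 ± 0.08, and Plscr1, an interferon-inducible membrane protein, by −0.41 ± 0.09. Tgfbr2, the type II receptor of TGF-beta, differed by −0.34 ± 0.08. C2, the complement protease of the classical pathway, was at 8.52, 8.55, 8.24, 8.52 and 8.48 in treated replicates 1 to 5 and at 8.65 to 8.92 at 30 weeks, and it was the one non-overlapping gene among 20 measured complement genes. All 7 of these genes had adjusted p-values of 0.203 by limma in the 12 kidneys, and without treated replicate 2 they ranged from 0.0235 (Tifa, Il10rb and Plscr1) to 0.0372 (C2). Ifnar2, a chain of the type I interferon receptor, belonged to the same class with a difference of only −0.17 ± 0.06, and was named here after its values were seen. Il10rb and Tnfaip8 differed by −0.30 and −0.27 in a fit with the actin covariate. The 29 measured type I interferon inducible genes had a median difference of 0.08, with no non-overlapping gene among them. Without treated replicate 2 that median was 0.28. In that fit 2 of the genes were called higher and 1 lower by limma, against 3.28% and 5.02% of all genes. Without treated replicate 5 the median was −0.006, and with the actin covariate it was −0.26.

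The remaining lower genes named by size were Aox1, an aldehyde oxidase, at −0.57 ± 0.10 (SE), Plbd1, a phospholipase-like lysosomal protein, at −0.45 ± 0.10, and Zbtb25, a zinc finger protein, at −0.33 ± 0.06. Aox1 and Zbtb25 were also the 2 genes called, at an adjusted p of 0.0463, when the spread was estimated by limma over the 7 30-week, 5 late-remission and 8 early-remission NZB/W kidneys together, a set that holds both kidneys with the shared code.

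Other lower genes, Cyp2f2, Adh1 and Apoc1, followed the adrenal list, and Mc2r is itself a member of that list. Cyp2f2, a cytochrome P450, had the largest difference of all non-overlapping genes, −2.02 ± 0.47 (SE). Its level was 5.56, 5.78, 5.60, 5.99 and 5.97 in the treated kidneys, 6.02 and 6.07 in 30-week replicates 4 and 7, and 8.33 to 8.70 in the other 5 30-week kidneys. The separation from replicates 4 and 7 was thus 0.034, and the size of the difference came from the 5 kidneys with high adrenal genes. Mc2r, the receptor for ACTH on adrenal cortical cells, was at 5.23 to 5.36 in the treated kidneys, 5.53 and 5.40 in 30-week replicates 4 and 7, and 7.13 to 7.54 in the rest. With the adrenal cortex mean as a covariate the difference shrank to −0.14 for Cyp2f2, −0.06 for Mc2r, −0.18 for Adh1, an alcohol dehydrogenase, and −0.61 for Apoc1, an apolipoprotein. Their differences without the covariate were −2.02, −1.50, −0.71 and −1.21. Because Mc2r is part of the covariate, its small value in that fit was largely set by construction.

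Among the higher genes Zbtb16, a transcription factor known to be induced by glucocorticoids, came first. Its level was 7.85, 7.15, 7.16, 7.06 and 7.67 in treated replicates 1 to 5, and at 30 weeks the lowest, median and highest levels were 6.27, 6.53 and 7.05. Treated replicates 1 and 5 were clearly highest, and replicate 4 cleared 30-week replicate 4 by 0.017. The difference was 0.73 ± 0.17 (SE), a 1.66-fold higher level. It was 0.35 ± 0.23 with the adrenal cortex covariate and 0.45 ± 0.18 with the actin covariate.

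Hspa1b, a heat-inducible HSP70 chaperone, was at 10.52, 10.34, 10.33, 10.84 and 10.52 in treated replicates 1 to 5 and at 9.60 to 10.23 at 30 weeks. Its near-identical neighbour Hspa1a was above the 30-week range in treated replicates 2, 3, 4 and 5 and differed by 0.56 ± 0.17 (SE) against 0.64 ± 0.13 for Hspa1b. Because the transcripts share most of their sequence, the array cannot be relied on to tell them apart. The promoter of Hspa1b is shown because this gene had the widest gap of the higher class; capitals mark the letters GAANNTTC, an inverted pair of heat shock units, 104 bases before the annotated start (RefSeq, GRCm38.p6, chr17:34959189-34959488, minus strand).
Hspa1b: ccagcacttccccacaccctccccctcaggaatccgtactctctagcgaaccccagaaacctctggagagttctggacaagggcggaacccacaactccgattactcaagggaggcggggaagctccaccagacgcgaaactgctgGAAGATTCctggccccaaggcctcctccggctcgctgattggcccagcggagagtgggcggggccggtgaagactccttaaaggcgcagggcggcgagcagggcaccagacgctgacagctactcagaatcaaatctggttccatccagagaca
These letters, searched on both strands, occur in 2582 of 32851 promoter windows of the same length (7.86%), so they are common.

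The next higher genes in size had varied functions. Cited4, a co-activator of transcription, differed by 0.53 ± 0.10 (SE), Atp8b1, a phospholipid flippase, by 0.52 ± 0.11, and Stc1, the calcium- and phosphate-regulating hormone stanniocalcin-1, by 0.49 ± 0.11. Hbegf, the heparin-binding EGF-like growth factor released by injured tubules, was at 7.80, 7.85, 7.89, 8.53 and 7.79 in treated replicates 1 to 5 and at 7.36 to 7.76 at 30 weeks. Replicate 4 alone was high, and the other treated kidneys were just above the 30-week range. Banp, a nuclear matrix-binding protein, differed by 0.44 ± 0.08, Abca13, an ABC transporter, by 0.42 ± 0.09, and Eif4ebp3, an inhibitor of cap-dependent translation, by 0.34 ± 0.07. Atf4, the transcription factor of the amino acid and endoplasmic reticulum stress responses, belonged to the class at 0.21 ± 0.06, the one such gene among 24 measured genes of endoplasmic reticulum stress. The rest of the 15 largest, Ghrhr, Ptcra, Cacng2, Stfa2l1, Gm1123 and Nkapl, differed by 0.31 to 0.36. Atp8b1, Eif4ebp3 and Stfa2l1 differed by 0.35, 0.23 and 0.21 with the actin covariate, and with the adrenal cortex covariate the difference of Stfa2l1 was 0.18.

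**Figure D2:**
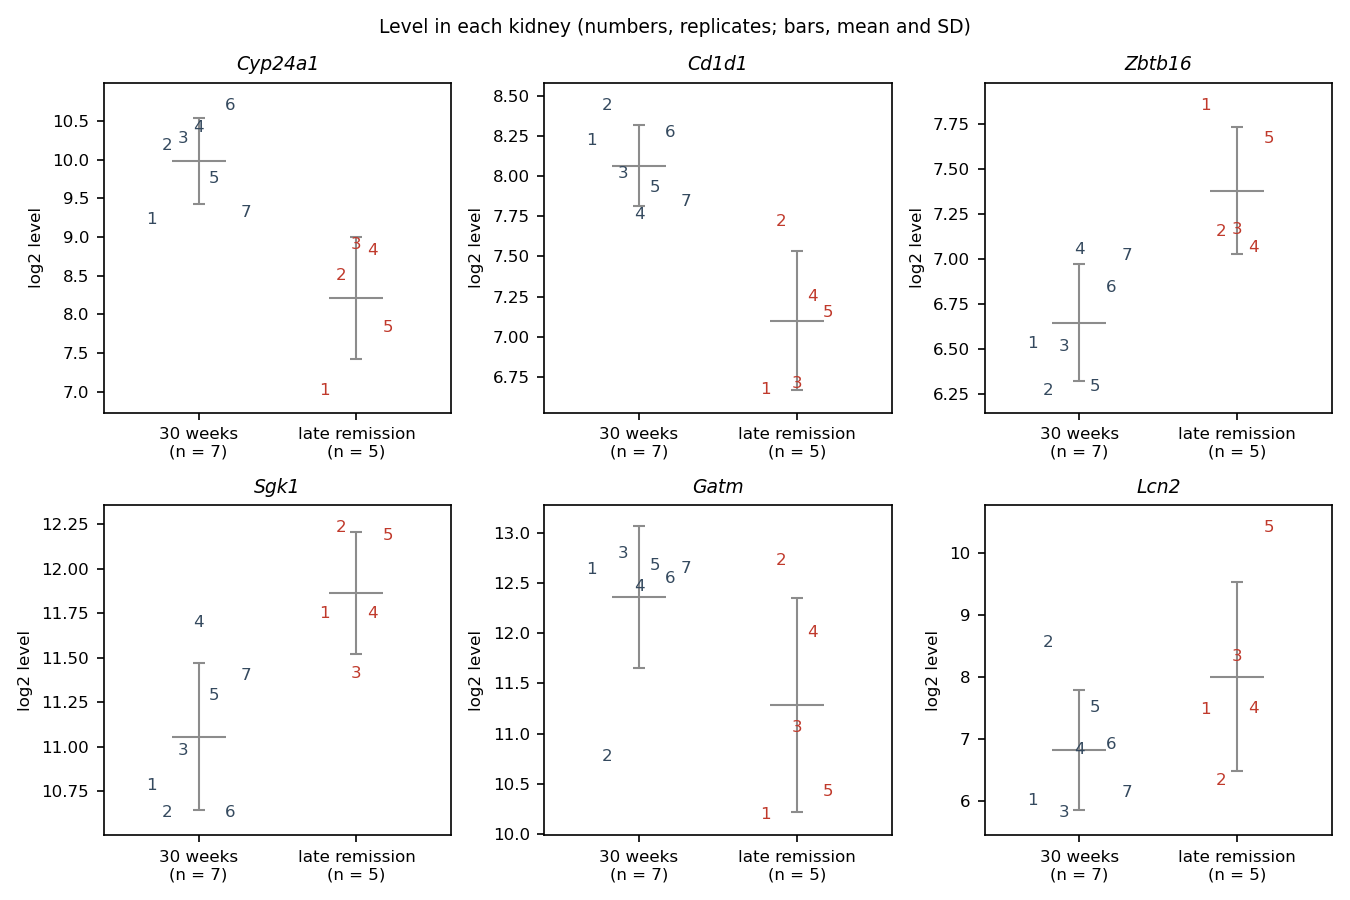
Log2 level of 6 genes in each kidney, 30 weeks (n = 7) beside late remission (n = 5). Numbers are replicate numbers and grey bars the mean and SD. The groups do not overlap for Cyp24a1, Cd1d1 and Zbtb16. For Sgk1 treated replicate 3 (11.41) falls inside the 30-week range, for Gatm replicates 1 and 5 fall below it, and for Lcn2 only replicate 5 (10.41) rises above it.

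The genes carried by some treated kidneys had larger differences and uneven support. Of the 56 higher genes 10 had 1 treated kidney beyond the 30-week range, 18 had 2, 15 had 3 and 13 had 4. Of the 139 lower genes the counts were 22, 46, 47 and 24. Treated replicate 1 lay beyond the range in 41 of the higher and 112 of the lower genes and replicate 5 in 46 and 89, whereas replicate 2 did so in 8 and 19. The most frequent combination among the lower genes was replicates 1, 3 and 5 together (35 genes), followed by replicates 1 and 5 (22 genes) and by replicates 1, 3, 4 and 5 (20 genes). Among the higher genes replicates 1, 3, 4 and 5 together and replicates 1 and 5 together had 9 genes each. At the fold limit, Egfl6 lay just inside the higher class with a difference of 0.4875 and Crispld2 just outside with 0.4835, and Snap23 lay just inside the lower class with −0.5149 and Iglc2 just outside with −0.5145.

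**Figure D3:**
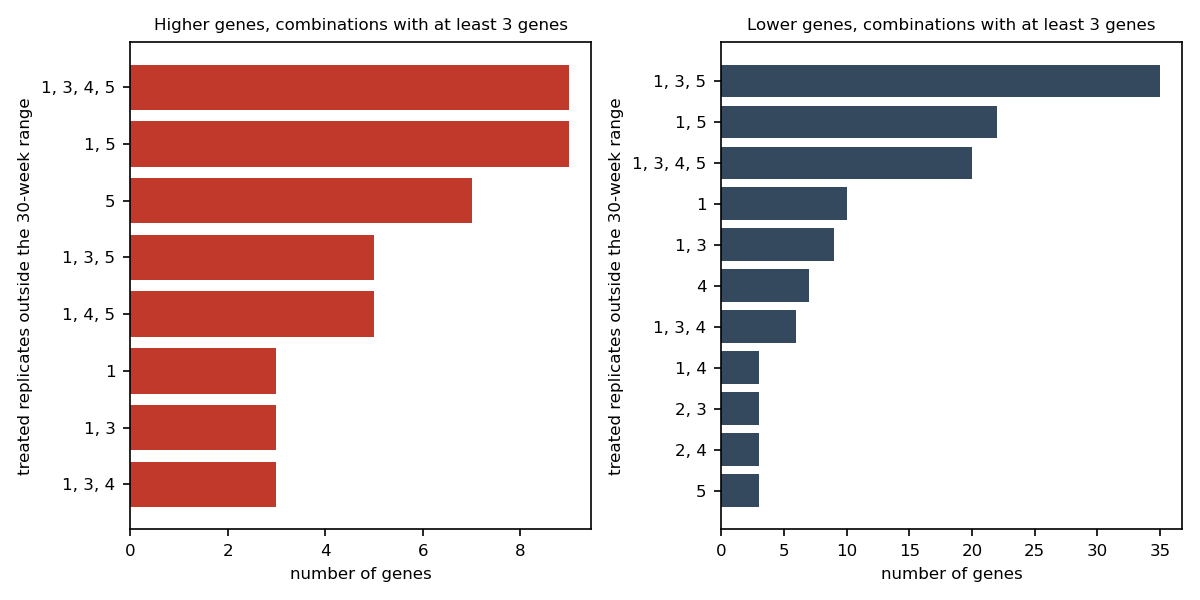
Number of genes (horizontal axis) by which late-remission replicates lie beyond the range of the 7 30-week kidneys (vertical axis), for higher genes (left) and lower genes (right) with a mean difference of at least 1.4-fold or at most 0.7-fold; combinations with at least 3 genes are shown. Replicates 1, 3 and 5 account for the longest bar, 35 lower genes.

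Lcn2, the siderophore-binding protein secreted by injured tubules and by neutrophils, had the largest positive difference of this class, 1.19 ± 0.61 (SE). Without treated replicate 5 the difference was 0.585. Its level was 7.47, 6.32, 8.33, 7.49 and 10.41 in treated replicates 1 to 5, and at 30 weeks the lowest, median and highest levels were 5.81, 6.82 and 8.56. Replicate 5 alone was above the 30-week range, whose highest kidney was replicate 2. Its difference was 0.51 ± 0.70 (SE) with the actin covariate. Il1f6, the epithelial cytokine interleukin-36 alpha, was at 7.16, 6.52, 6.41, 6.88 and 7.25 and exceeded the 30-week range of 6.10 to 6.58 in replicates 1, 4 and 5. Ankrd1, a nuclear ankyrin-repeat protein of stressed epithelium and muscle, exceeded it in the same replicates. The difference went from 0.52 to 0.34 for Il1f6 and from 0.57 to 0.27 for Ankrd1 with the actin covariate. Havcr1, which encodes the injury marker KIM-1, had a negative difference of −0.49 ± 0.26 (SE), with 9.73 in treated replicate 4, 8.34 to 8.69 in the other treated kidneys and 8.48 to 9.68 at 30 weeks. It was −0.19 with the actin covariate and −0.05 with the adrenal cortex covariate. Over the 19 measured tubular injury genes 4 were in the higher carried class, which held 0.355% of all genes. The median difference was 0.22 against 0.035 over all genes, and it was 0.06 with the actin covariate.

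Sgk1, the kinase that mediates hormonal control of sodium transport and is induced by glucocorticoids and aldosterone, was at 11.75, 12.23, 11.41, 11.75 and 12.19 in treated replicates 1 to 5. At 30 weeks the lowest, median and highest levels were 10.63, 10.98 and 11.70. Treated replicates 1, 2, 4 and 5 were above all 30-week kidneys, and replicate 3 was above all but replicate 4 at 30 weeks. The highest 30-week levels, 11.70 and 11.40, were those of replicates 4 and 7, the 30-week kidneys with low adrenal genes. The difference was 0.81 ± 0.20 (SE), and it was 0.285 ± 0.23 with the adrenal cortex mean as a covariate. A promoter of Sgk1 is shown because it was the highest of the genes carried by 4 kidneys; capitals mark the palindrome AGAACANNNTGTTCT, a canonical glucocorticoid response element, 189 bases before the start of the transcript (RefSeq, GRCm38.p6, chr10:21993640-21993939, plus strand).
Sgk1: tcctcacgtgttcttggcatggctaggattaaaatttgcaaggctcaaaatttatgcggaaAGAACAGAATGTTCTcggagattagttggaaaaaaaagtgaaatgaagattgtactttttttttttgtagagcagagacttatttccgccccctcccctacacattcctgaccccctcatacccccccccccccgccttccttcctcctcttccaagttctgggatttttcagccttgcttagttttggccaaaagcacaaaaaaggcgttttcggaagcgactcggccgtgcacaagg
It is 1 of 6 windows of Sgk1 and the one that holds these letters, which occur on either strand in 3 of 32851 windows (0.00913%). The match describes the sequence and says nothing of binding in these kidneys.

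Ddit4, an inhibitor of mTORC1 that rises with stress and glucocorticoids, was at 9.06, 9.17, 9.85, 9.51 and 9.69 in treated replicates 1 to 5, of which replicates 2 to 5 were above the 30-week range of 8.04 to 9.11. Noct, a clock-controlled gene, exceeded the 30-week range in replicates 2 and 5, and the clock genes Per1 and Cry1 in replicates 4 and 5 and in replicates 1, 2 and 5. The clock-controlled protease gene Usp2 did so in replicates 1, 2 and 5. Of the 21 measured circadian clock genes 12 were higher in mean and 9 lower, with a median of 0.08 against 0.035 over all genes. That median was 0.015 without treated replicate 2 and −0.22 with the adrenal cortex covariate. In the higher carried class were 4 of the 21, against 0.355% of all genes. Per1 was at 8.34 to 8.91 in the treated kidneys and at 7.09 to 8.72 at 30 weeks, so that its difference of 0.64 ± 0.27 (SE) lay within a wide 30-week spread. With the adrenal cortex covariate the differences went from 0.755 to 0.40 for Noct, from 0.59 to 0.007 for Usp2 and from 0.64 to −0.04 for Per1, and with the actin covariate from 0.53 to 0.28 for Cry1 and from 0.59 to 0.37 for Usp2. Klf6, an injury-responsive transcription factor, Fst, which encodes the activin antagonist follistatin, and Bpnt2, a Golgi nucleotidase, lay above the 30-week range in treated replicates 1 and 5, and Bpnt2 also in replicate 3, and 30-week replicate 2 was the top of that range for all 3 genes. Their differences were 0.73, 0.70 and 0.67, and with the actin covariate they were 0.35, 0.21 and 0.33.

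The collecting duct water channel Aqp2 was at 10.89, 10.26, 10.81, 10.49 and 10.69 in treated replicates 1 to 5 and at 9.46 to 10.44 at 30 weeks, so replicates 1, 3, 4 and 5 were above that range. Clca3a1, a chloride channel accessory protein, lay above the 30-week range in replicates 3 and 5. Pnliprp1, a pancreatic lipase-related gene, was at 6.48 in replicate 1, and the mean of 10 pancreatic genes was 0.89 above the 30-week mean in that kidney and 0.02 to 0.15 above it in the other treated kidneys. Alas2, the erythroid enzyme of haem synthesis, was at 9.35 in replicate 5 and varied from 5.21 to 8.10 at 30 weeks. With the actin covariate the differences went from 0.53 to 0.30 for Aqp2, from 0.75 to 0.36 for Clca3a1, from 0.67 to −0.001 for Pnliprp1 and from 0.67 to −0.38 for Alas2, and with the adrenal cortex covariate that of Alas2 was 1.66.

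**Figure D4:**
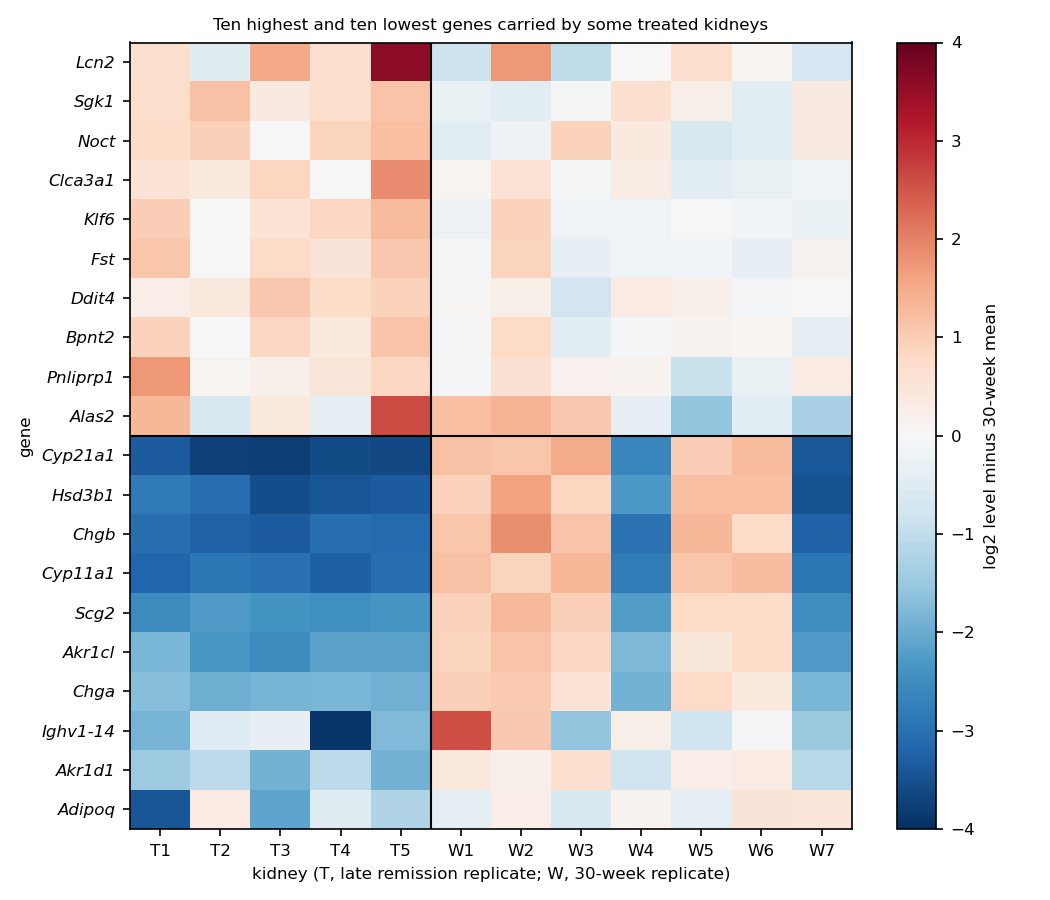
Log2 level minus the 30-week mean (colour, red higher and blue lower) of the 10 genes with the largest positive and the 10 with the largest negative difference among those carried by some treated kidneys. Columns are late-remission replicates T1 to T5 and 30-week replicates W1 to W7. Adrenal genes (Cyp21a1 to Chga) are low in all treated kidneys and in W4 and W7, and Adipoq is low in T1, T3 and T5.

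The lowest genes of the carried class were adrenal. Cyp21a1 and Cyp11a1, enzymes of steroid synthesis, differed by −3.60 ± 0.80 (SE) and −3.07 ± 0.75, Hsd3b1, another enzyme of that pathway, by −3.23 ± 0.78, and Chgb, Chga and Scg2, which encode granins of chromaffin cells, by −3.15, −1.85 and −2.40. Cyp21a1 was at 5.44 to 5.87 in the treated kidneys, at 6.58 and 5.79 in 30-week replicates 4 and 7 and at 10.19 to 10.67 in the other 30-week kidneys. Akr1cl, an aldo-keto reductase, had the same division at −2.20. With the adrenal cortex covariate the differences were −0.315 for Cyp21a1, −0.07 for Hsd3b1, 0.008 for Cyp11a1, 0.165 for Chgb, 0.13 for Scg2, 0.13 for Chga and 0.01 for Akr1cl. Cyp21a1, Hsd3b1 and Cyp11a1 are themselves part of that covariate, so their small values in that fit were largely set by construction. All 9 adrenal cortex genes and all 7 adrenal medulla genes measured had a negative difference, against 6519 of 15780 over all genes. The list medians were −2.97 and −0.89. Leaving out both adrenal lists took the lower genes from 37 to 36 in the non-overlapping class and from 139 to 129 in the carried class. Cyp2f2, Adh1, Apoc1, Scg2 and Akr1cl, whose differences also shrank with the adrenal cortex covariate, are in neither list and stay in those counts.

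Adipose genes separated the treated kidneys from each other. Adipoq, the fat cell hormone adiponectin, was at 6.63, 10.38, 7.96, 9.56 and 8.84 in treated replicates 1 to 5, and at 30 weeks the lowest, median and highest levels were 9.42, 10.19 and 10.56. Replicates 1, 3 and 5 were below every 30-week kidney and replicates 2 and 4 were within their range. Car3, a carbonic anhydrase abundant in fat, at 7.66, 10.94, 8.90, 10.60 and 9.34, and Cidea, a lipid droplet protein, at 6.74, 8.13, 6.59, 9.21 and 7.16, were below the 30-week range in the same replicates. Of 11 measured adipose genes 6 were in the lower carried class, which held 0.881% of all genes. The list mean relative to 30 weeks was −1.43, 0.04, −1.44, 0.17 and −0.66. The same 3 kidneys had the highest actin differences (1.50, 0.99 and 1.29), and with that covariate the difference went from −1.38 to −0.59 for Adipoq, from −1.05 to −0.18 for Car3 and from −1.10 to −0.705 for Cidea, and the list median from −0.69 to −0.25. In whole-organ RNA fewer cells of a type and less RNA per cell cannot be told apart.

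Proximal tubule genes were low in the same 3 treated kidneys and in 30-week replicate 2. Gatm, the enzyme of creatine synthesis, was at 10.20, 12.72, 11.06, 12.01 and 10.43 in treated replicates 1 to 5, at 10.77 in 30-week replicate 2 and at 12.46 to 12.79 in the other 30-week kidneys. Treated replicates 1 and 5 were below every 30-week kidney, replicates 3 and 4 were below all but replicate 2, and treated replicate 2 was among the high values. Slc6a19, the neutral amino acid transporter, was at 8.82, 10.83, 9.08, 9.76 and 9.54 against 8.88 in 30-week replicate 2 and 9.97 to 11.06 in the rest. Slc34a3, a sodium-phosphate cotransporter, was at 8.72, 10.38, 8.84, 9.81 and 8.94 against 8.40 in 30-week replicate 2 and 10.11 to 10.47 in the rest, and so had no treated kidney beyond the range. Treated replicates 1, 3 and 5 also had the highest actin differences (1.50, 0.99 and 1.29). With the actin covariate the difference went from −1.07 to −0.08 for Gatm, from −0.76 to −0.23 for Slc6a19 and from −0.70 to −0.03 for Slc34a3.

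The mean of the 19 proximal tubule genes relative to 30 weeks was −0.75, 0.10, −0.49, −0.11 and −0.69 in treated replicates 1 to 5, against −0.65 in 30-week replicate 2 and 0.02 to 0.17 in the other 6. The median difference over the list was −0.405, and −0.04 with the actin covariate, against 0.035 over all genes without a covariate. In mean 16 of 19 genes were lower, against 6519 of 15780 over all genes. Of the 19 genes 3 were in the lower carried class, which held 0.881% of all genes, and none was called by limma. Without treated replicate 2 the median was −0.52 and 4 of the 19 genes were called lower, against 5.02% of all genes. Without 30-week replicate 2 the median was −0.51 and none was called. The 12 loop and distal tubule genes had a median of 0.12, the 13 collecting duct genes one of 0.17 and the 9 podocyte genes one of 0.11. Among the loop and distal genes Egf, the epidermal growth factor precursor, was at 12.35, 13.30, 12.59, 12.90 and 12.50 in treated replicates 1 to 5 and at 12.70 to 13.38 at 30 weeks, so that replicates 1, 3 and 5 were below the range. Its difference was −0.41, and −0.12 with the actin covariate. By limma Egf was not called with all kidneys and had an adjusted p of 0.0335 without treated replicate 2.

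Metabolic lists were lower in mean as well. In amino acid catabolism 28 of 36 genes were lower in mean, with a median of −0.17, and in fatty acid oxidation 23 of 30, with a median of −0.13. Over all genes 6519 of 15780 were lower in mean. Pdk4, the kinase that shuts off pyruvate dehydrogenase in fasting, was at 7.31, 9.33, 8.19, 9.07 and 8.13 in treated replicates 1 to 5 and at 8.42 to 9.87 at 30 weeks, so that replicates 1, 3 and 5 were below the range. Ppara, the fatty acid-sensing nuclear receptor, was below it in replicates 1 and 5. With the actin covariate the differences went from −0.71 to −0.11 for Pdk4 and from −0.58 to −0.05 for Ppara, and the amino acid catabolism median to −0.06. The 47 measured oxidative phosphorylation genes had a median of 0.03, and their mean lay between −0.03 and 0.03 in every treated kidney.

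Immune gene lists also divided the treated kidneys, and 30-week replicate 2 was their highest kidney. The macrophage and dendritic cell mean relative to 30 weeks was 0.37, −0.70, 0.01, −0.66 and 1.0 in treated replicates 1 to 5, against 1.24 in 30-week replicate 2 and −0.48 to 0.09 in the other 6. Replicates 2 and 4 were below all 30-week kidneys on this measure, and replicates 1 and 5 were above all but replicate 2. C1qb, a complement chain made by macrophages, was at 10.38, 7.71, 9.86, 8.68 and 10.59, against 10.95 in 30-week replicate 2 and 7.99 to 9.01 in the rest. Fcgr4, an activating Fc receptor, was at 8.40, 6.30, 8.16, 6.66 and 8.68 against 8.90 in 30-week replicate 2 and 6.30 to 7.38 in the rest. For both genes treated replicates 1, 3 and 5 were above the other 6 30-week kidneys and below 30-week replicate 2.

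Cybb, the catalytic subunit of the phagocyte oxidase, ran the other way in mean, at 6.99, 7.29, 7.03, 6.16 and 8.01 against 7.07 to 8.48 at 30 weeks. Laptm5, a lysosomal protein of blood cells, was at 9.25, 7.24, 9.29, 7.64 and 9.11, and Ccl5, a chemokine for T cells, at 8.51, 6.08, 8.17, 7.42 and 8.54. The 10 MHC class II presentation genes all had positive mean differences, against 9261 of 15780 over all genes. Their median was 0.23 and, without 30-week replicate 2, 0.42. Without treated replicate 5 that median was 0.103, without treated replicate 2 it was 0.41, and with the actin covariate −0.275. Cd74, the invariant chain, was at 11.67, 10.03, 11.84, 10.98 and 11.88 in treated replicates 1 to 5 and at 10.37 to 11.94 at 30 weeks. With the actin covariate the differences turned from 0.58 to −0.475 for C1qb, from 0.60 to −0.28 for Fcgr4, from 0.57 to −0.19 for Laptm5, from 0.53 to −0.42 for Ccl5 and from 0.40 to −0.26 for Cd74, and the macrophage and dendritic cell median from 0.04 to −0.60. No gene of the macrophage, T cell, B cell, chemokine or MHC lists was in a non-overlapping class or called by limma in the 12 kidneys.

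B lineage cells depend on the cytokines that TACI-Ig captures. The 20 measured plasma cell and immunoglobulin genes had a median difference of −0.09, which was 0.144 without treated replicate 4, −0.198 without treated replicate 3 and −0.42 with the actin covariate. The list mean relative to 30 weeks was 0.17, −0.46, 0.62, −1.25 and 0.16 in treated replicates 1 to 5, against −0.76 to 1.10 at 30 weeks. Ighm, the mu heavy chain, was at 9.55, 8.53, 10.30, 6.34 and 9.60 against 8.61 to 11.13, and Ighg2b, a gamma heavy chain, at 8.62, 7.05, 9.56, 4.54 and 8.07 against 6.44 to 9.30. Replicate 4 was far below all other kidneys for both genes, and without it the Ighg2b difference turned from −0.64 to 0.12. Ighv1-14, a heavy chain variable segment, was at 5.28, 6.62, 6.80, 3.23 and 5.38 against 5.55 to 9.72. The difference went from −0.89 to −1.64 for Ighm and from −0.64 to −1.385 for Ighg2b with the actin covariate. Immunoglobulin segments resemble each other closely, so values of single segments are uncertain. The 12 B cell genes had a median of 0.07 and the 11 genes of BAFF, APRIL and costimulation one of 0.07.

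**Figure D5:**
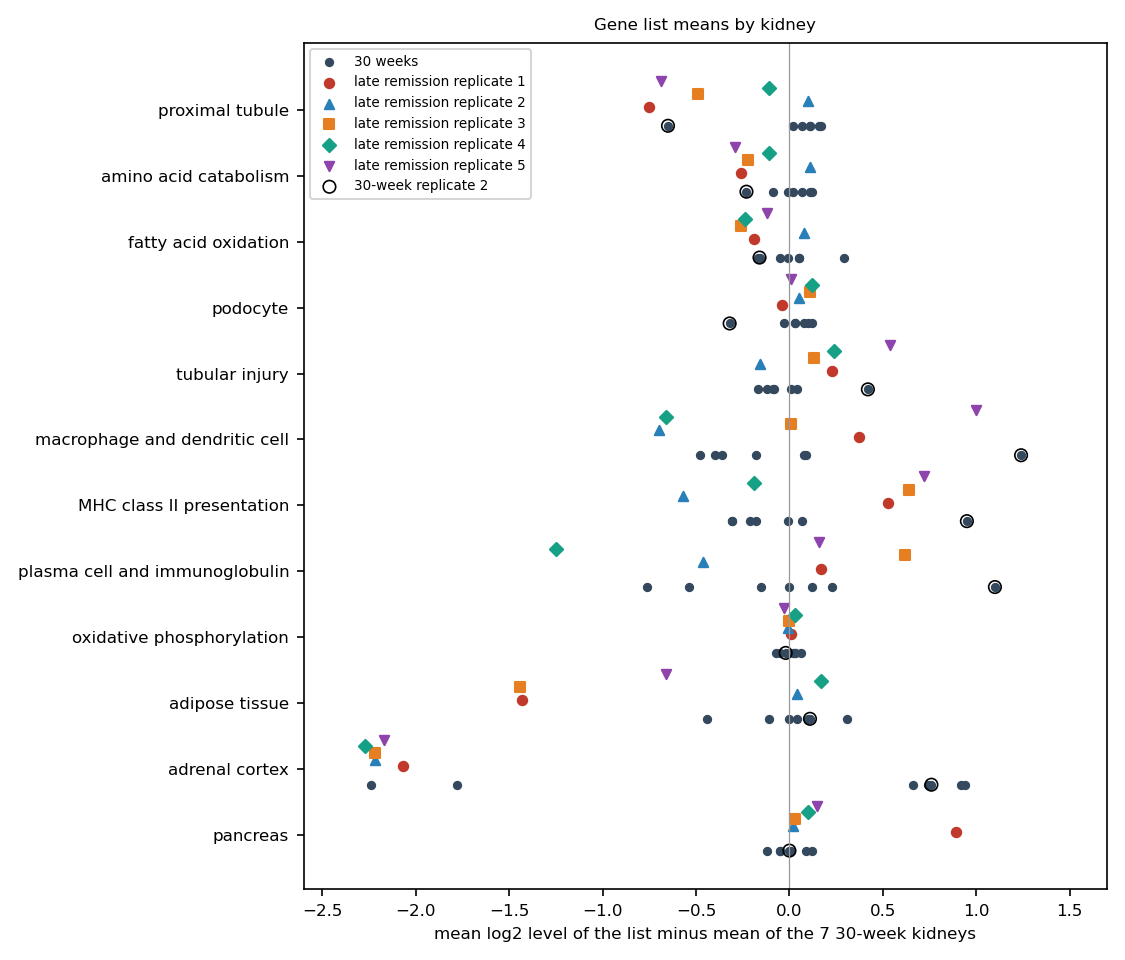
Mean log2 level of 12 gene lists in each kidney minus the mean of the 7 30-week kidneys (horizontal axis). Coloured symbols are late-remission replicates 1 to 5, dark dots the 30-week kidneys, and the ring marks 30-week replicate 2. Late-remission replicates 1, 3 and 5 are low for the proximal tubule and adipose lists and high for MHC class II, and all 5 share the low adrenal cortex level of 30-week replicates 4 and 7.

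The 3 fibrinogen chain genes were lower in mean. Of the 20 measured coagulation genes 12 were lower in mean and 8 higher, with a median of −0.07 against 0.035 over all genes. The lower carried class held 4 of the 20 and the higher carried class 1, against 0.881% and 0.355% of all genes. Fga differed by −0.62 ± 0.18 (SE) and was at 8.18, 9.50, 9.16, 9.17 and 8.94 in treated replicates 1 to 5 against 9.37 to 9.96 at 30 weeks. Replicates 1, 3, 4 and 5 were below the range. Fgb differed by −0.76 ± 0.28 and Fgg by −0.63 ± 0.30, with 3 and 2 treated kidneys below it. Fga differed by −0.26 and Fgb by −0.48 with the actin covariate, and Fgb by −0.41 and Fgg by −0.07 with the adrenal cortex covariate. The immediate early genes Fos and Egr1 varied widely among the kidneys of each group. Fos was at 5.78, 6.94, 6.15, 8.58 and 6.80 against 6.38 to 9.62, and Egr1 was at 10.97 in treated replicate 4 and 7.67 to 8.55 in the other 4, against 8.36 to 10.24.

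Another set of NZB/W kidneys, 8 taken in early remission after triple therapy, gives a further reference for some of the genes above, and only their levels are given here. It includes the kidney that shares its code with 30-week replicate 6. Cyp24a1 had a lowest, median and highest level of 8.23, 9.10 and 10.17 there, with 4 of 8 kidneys below the 30-week range. Cd1d1 was at 7.07, 7.52 and 8.13, with 6 of 8 below that range, and C2 at 8.40, 8.54 and 8.77, also with 6 of 8. Among the other largest non-overlapping lower genes, Plbd1, Lgals9 and Zbtb25 were below it in 6, Tifa, Plscr1 and Tgfbr2 in 5 and Apoc1 in 4. Tnfaip8 was below it in 3, Cyp2f2, Adh1 and Il10rb in 2, and Mc2r and Aox1 in 1. For Tifa, Plscr1 and Zbtb25 1 kidney lay above the range. Zbtb16 was at 6.65, 6.81 and 7.04, with no kidney beyond the 30-week range, and Sgk1 at 10.37, 11.36 and 12.22, with 1 above and 1 below it. Among the other largest non-overlapping higher genes, Abca13 was above that range in 7 of 8 kidneys, Ghrhr in 6, and Hspa1b and Gm1123 in 5. Atp8b1 and Cacng2 were above it in 4, Stc1, Hbegf, Banp, Ptcra, Stfa2l1 and Nkapl in 2, and Cited4 and Eif4ebp3 in 1. Some of these genes also had kidneys below the range, 2 for Stc1 and 1 each for Hspa1b, Atp8b1, Hbegf, Banp, Cited4 and Eif4ebp3.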

How the data were processed

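The deposited table holds log2 expression values that the authors made with RMA from Affymetrix arrays hybridised with whole-kidney RNA, 1 probe set per gene; their methods state joint normalization and batch correction. Array software versions and the batches are not given in the sources used here. Sample names carry different codes in the 2 groups, so any batch behind them and the group cannot be told apart. Of 16539 probe sets, 15780 with a gene name were tested, which leaves out 64 array controls and 695 unnamed sets.

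Groups were compared with limma 3.58.1 (R 4.3.3) without covariates, with Benjamini-Hochberg adjustment, and a SAM-type test with 100 permutations was run beside it. A gene was non-overlapping when all 5 treated kidneys lay on 1 side of all 7 30-week kidneys. It was carried by some kidneys when its mean difference was at least 1.4-fold or at most 0.7-fold and 1 to 4 treated kidneys lay beyond the 30-week range. Named genes were the 15 largest and 15 smallest differences of the first class, the 10 and 10 of the second, up to 3 per gene list by size, Lcn2, Havcr1 and Il1f6; Umod was a fixed tissue marker, and Atf4, C2, Hspa1a and Ifnar2 were chosen after their values were seen. A total of 40 gene lists was used, and each list mean averages its log2 values. The members and lists were chosen with earlier results of these data known. Fits and classes were tested on simulated data. Alternatives were joint fits, renewed quantile normalization, median centring, omission of dim genes (mean level under 6.07), weights for each array, a robust prior with an intensity trend, omission of the adrenal lists, a replicate block and omission of each kidney. Covariates for the adrenal cortex mean and the actin control were added after seeing the data. The number of arrays limits the precision.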

Additional observations from a re-analysis of the deposited data

Results flagged for a closer look

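In 39 of 246 groups of values (the 82 named genes, 40 list means and the actin control, each in both groups) 1 kidney lay apart from the others by Dixon's test at the 95% level. Chance gives about 1 in 20 such groups, and the values are not independent, since 26 of the 39 belong to 30-week replicate 2. The explanation of these kidneys was not tested.

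The list means of 30-week replicate 2, relative to the 30-week mean, stood apart from those of the other 6 kidneys of its group for many immune lists. They were 1.24 for macrophages and dendritic cells, 0.95 for MHC class II presentation, 0.79 for B cells, 0.69 for chemokines and receptors, 0.65 for neutrophils, 0.64 for MHC class I and the immunoproteasome, 0.56 for T cells, 0.48 for BAFF, APRIL and costimulation, 0.47 for NK and cytotoxic cells and 0.41 for complement. The lymph node stroma list was at 0.91 and cell cycle at 0.53 in the same kidney, tubular injury at 0.42, endothelium at 0.14 and extracellular matrix at 0.07. Its proximal tubule mean was −0.65 and its podocyte mean −0.32. Among genes it was apart for Gatm (10.77), Slc34a3 (8.40) and Egf (12.70, others 13.09 to 13.38), all low, and for Klf6 (8.45), Fst (8.46), Fcgr4 (8.90), Laptm5 (9.21), C1qb (10.95) and Cd74 (11.94), all high.

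Treated replicate 4 was high for Hbegf (8.53, others 7.79 to 7.89), Hspa1a (9.44, others 8.43 to 8.65), Havcr1 (9.73, others 8.34 to 8.69) and Egr1 (10.97, others 7.67 to 8.55), and for the mean of the immediate early list (0.53, others −0.25 to −0.05). Treated replicate 1 was high for the pancreas list (0.89, others 0.02 to 0.15) and the skeletal muscle list (0.32, others 0.07 to 0.11) and low for Tnfaip8 (9.94, others 10.39 to 10.46). Treated replicate 2 was high for Zbtb25 at 6.10 and treated replicate 3 low for C2 at 8.24. At 30 weeks replicate 1 was low for Cacng2 (6.07) and high for Plbd1 (9.60), and replicate 3 was low for Ddit4 (8.04).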

How the results depend on the processing

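The limma counts of 0 higher and 0 lower genes at an adjusted p of 0.05 held under renewed quantile normalization, median centring, omission of dim genes (mean level under 6.07), weights for each array, a robust prior with an intensity trend, the joint fit over all 5 groups, omission of the adrenal lists and both covariates. The joint fit over NZB/W kidneys without late remission after triple therapy called 2 lower genes, and the SAM-type test called 20 higher and 24 lower genes, of which 1 and 5 passed the study's filter. Leaving out single kidneys gave 0 to 517 higher and 0 to 792 lower genes, with 0 past the study's filter each time. The upper end was without treated replicate 2 and the cause was not tested. The fit with the replicate number as a block (5 pairs) called 0 higher genes and 1 lower gene, Cyp24a1. Deviations of same-numbered kidneys correlated at −0.71 to 0.03 and 0 of the 5 treated kidneys correlated best with their own number, so the number pairs nothing here.

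Non-overlapping genes numbered 42 higher without the dim genes, by construction. Leaving out single kidneys gave 99 to 496 higher and 40 to 352 lower genes. Besides treated replicate 2, the higher count passed 1.5 times its value without treated replicate 3 (138) or 4 (189) and 30-week replicate 2 (198), 4 (140) or 6 (138). The lower count did so without treated replicate 3 (57), 4 (69) or 5 (57) and 30-week replicate 2 (144), 4 (58) or 7 (57). Renewed quantile normalization kept 38 of the 89 higher and 23 of the 37 lower genes and median centring 63 and 27. Genes carried by some kidneys numbered 30 to 125 higher and 76 to 253 lower with single kidneys left out, and 1 and 18 at a 2-fold limit. The higher count was 30 without treated replicate 1, 33 without replicate 5, 108 without replicate 2 and 125 without 30-week replicate 2. The lower count was 76 without treated replicate 1 and 253 without replicate 2.

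Of 1722 values of the 82 named genes under these alternatives 14 turned direction. With the actin covariate these were Pnliprp1 (−0.001), Alas2 (−0.376), Fcgr4 (−0.281), Laptm5 (−0.189), Ccl5 (−0.42), C1qb (−0.475) and Cd74 (−0.262), and with the adrenal cortex covariate Per1 (−0.04), Chgb (0.165), Cyp11a1 (0.008), Scg2 (0.131), Akr1cl (0.012) and Chga (0.134). The last was Ighg2b, whose difference ran from −1.133 without treated replicate 3 to 0.121 without replicate 4. Cyp11a1 is itself part of the adrenal cortex covariate, so its turn of direction in that fit carries no information. A further 58 passed the threshold that the 12 kidneys did not, 51 of them without treated replicate 2. Of 680 list medians 35 moved by more than the spread among 30-week kidneys, among them extracellular matrix at −0.006 after quantile normalization and conjugation enzymes and cytochrome P450 at −0.153 without the dim genes.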
